A study of Mus musculus with 6 samples.

Results

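The genes described here are the fibroblast growth factors (Fgf), their receptors, and the Sprouty, Spred, Dusp and Sef feedback inhibitors with their docking proteins and the Ets factor gene Etv1. They were picked by gene name, with earlier results of these data known. The whole expression table gave 40 of its 22667 genes: 22 Fgf genes, 5 receptor genes, 2 adaptor genes, 10 feedback inhibitor genes and Etv1. Of the 40, 27 had a mean of at least 1 cRPKM over all libraries and entered the test, and 13, all of them Fgf genes, were below it. The unit, cRPKM, is a corrected form of RPKM, which divides reads by gene length and by the mapped reads of the library, so levels can be set side by side between genes.

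The libraries came from 6 embryos of 1 pregnant female at E13.5. Of these, 3 were Fat4-/- mutants and 3 were Fat4+/+ wildtype, on a strain that the labels give as C57BL6/6 (Backcrossed 6 times:N6). Each library held total RNA of the 2 kidneys of an embryo, with ureteric bud, condensing mesenchyme and stroma together and the ureter mostly removed. The labels name no allele, so what the Fat4 mutation removes is unknown here.

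Secreted Fgf proteins bind receptor tyrosine kinases at the cell surface together with heparan sulfate. The receptors phosphorylate the docking protein Frs2, which recruits adaptors that turn on Ras and the kinase Erk. Erk then raises transcription of Ets factors and of inhibitors that act back on the same route, so Sprouty, Spred and Dusp genes are widely read as a record of signalling. In the developing kidney, Fgf9 and Fgf20 keep nephron progenitors alive and undifferentiated, Fgf8 is needed in forming nephrons, and Fgf7 and Fgf10 act on the branching ureteric bud.

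A single member passed the test over all genes: the feedback inhibitor Spry2 was higher in mutant kidneys. No member passed downwards. The upstream promoter stretches of Spry2 and of Dusp6, the inhibitor with the next smallest p, are shown because both genes are read as outputs of Erk, whose nuclear effectors include Ets factors. Ets factors bind around a GGAA core, and the capitals mark each GGAA or its reverse complement TTCC. Each run is the 250 bases before the RefSeq transcription start on GRCm38.p6, written 5′ to 3′ on the gene's own strand. For Spry2 it is chr14:105896820-105897069, minus strand, and for Dusp6 it is chr10:99262981-99263230, plus strand.
Spry2: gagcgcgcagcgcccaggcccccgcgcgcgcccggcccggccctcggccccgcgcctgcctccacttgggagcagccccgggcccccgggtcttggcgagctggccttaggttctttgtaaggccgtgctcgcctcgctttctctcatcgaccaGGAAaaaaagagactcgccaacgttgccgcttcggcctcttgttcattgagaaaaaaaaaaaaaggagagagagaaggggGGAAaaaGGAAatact
Dusp6: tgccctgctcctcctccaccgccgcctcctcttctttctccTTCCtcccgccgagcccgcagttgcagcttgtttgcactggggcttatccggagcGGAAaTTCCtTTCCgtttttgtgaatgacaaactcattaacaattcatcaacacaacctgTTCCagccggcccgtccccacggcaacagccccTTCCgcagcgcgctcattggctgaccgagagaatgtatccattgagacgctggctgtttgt
The core occurred 3 times in the Spry2 stretch and 6 times in the Dusp6 stretch. It is a common word, found on either strand in 93.4% of the 32851 RefSeq promoter windows cut to the same 250 bases and in 36 of 38 windows of the 30 members that had an entry. The longer Ets words CCGGAA and CCGGAAGT, searched on both strands, were in neither stretch; CCGGAA, which holds the core, was in 12% of all windows and 5 of the 38, and CCGGAAGT, which holds both shorter words, in 2.88% of all windows and 2 of the 38. These matches are descriptions of the letters and not evidence of binding.

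Facts about the libraries bear on every value below. Fat4 stood between 15.69 and 16.83 cRPKM in wildtype and between 7.20 and 7.82 in mutant kidneys. Read totals are unknown, and the steps between low values put the other libraries at 0.904 to 1.04 times the depth of wildtype embryo 1. This estimate is rough: it matched 17 of 35 low genes for wildtype embryo 3 (0.904) and 17 of 28 for mutant embryo 3 (1.04). Genes of the Y chromosome (Uty, Eif2s3y, Kdm5d and Ddx3y) were on in the wildtype embryos and in mutant embryo 1 (7.79 to 27.06 cRPKM) and near 0 in mutant embryos 2 and 3, so genotype and sex overlap in this litter. Kidney markers were present in every library: 9 nephron progenitor genes summed to between 323 and 447 cRPKM and 10 stromal genes to between 533 and 660. Markers of neighbouring tissues were low, with 5 adrenal cortex genes at a sum of 2.14 to 2.42 cRPKM, 5 gonad and germ cell genes at 0.67 to 1.15 and 5 skeletal muscle genes at 1.70 to 9.90, highest in wildtype embryo 1. No gene of these lists was at 0 in every library.

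**Figure D1:**
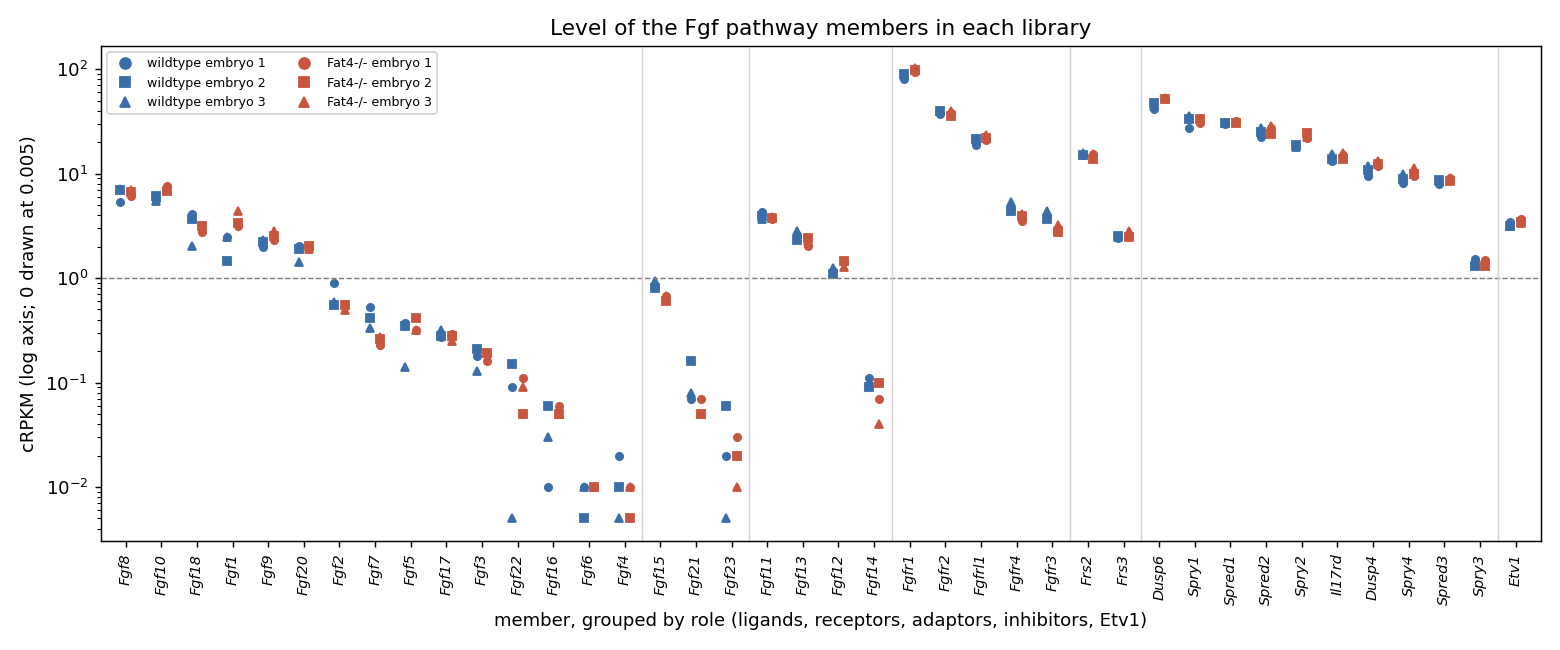
Level of the 40 members in each library, in cRPKM on a log axis with 0 drawn at 0.005, grouped by role; blue points are wildtype and red points mutant embryos, and the dashed line is the minimum mean of 1 for testing. Fgfr1 and Dusp6 are the highest members, and the secreted Fgf genes run from about 7 cRPKM for Fgf8 and Fgf10 down to 0.

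The ligands were expressed at far lower levels than their receptors. The 15 secreted Fgf genes of the paracrine type together summed to 23.5 ± 1.06 cRPKM in wildtype and 26.7 ± 1.16 in mutant kidneys (SD, n = 3), against 133.5 ± 6.60 and 142.3 ± 5.34 for the 4 kinase receptor genes. Fgf8 and Fgf10 were the most abundant ligand transcripts, followed by Fgf18, Fgf1, Fgf9 and Fgf20, and no other secreted ligand reached the minimum for testing. Of these 6 tested ligands none passed the test, and the mutant and wildtype values did not overlap for Fgf10, Fgf1 and Fgf9. Over all tested genes, the groups did not overlap with the mutant higher for 7.23% and with the mutant lower for 11.0%.

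Fgf10, a mesenchymal ligand that signals to epithelium mainly through the epithelial form of Fgfr2, was at 5.62, 6.16 and 5.45 cRPKM in wildtype against 7.61, 6.81 and 6.89 in mutant kidneys. All mutant values lay above all wildtype values, with a mean 1.24 times the wildtype mean (log2 fold change 0.27, SE 0.0599, adjusted p = 0.0825). Fgf1, a ligand that can bind every Fgf receptor and leaves the cell without a signal peptide, had the biggest fold of the tested members and also a wide spread. Its values were 2.45, 1.45 and 2.46 cRPKM in wildtype against 3.12, 3.34 and 4.43 in mutant kidneys. The groups were apart, with a ratio of means of 1.71 (log2 fold change 0.58, 95% interval 0.23 to 0.92, adjusted p = 0.126). Mutant embryo 3 stood above the other mutants and wildtype embryo 2 below the other wildtypes; the log2 fold change was 0.46 without the former and 0.41 without the latter. The gene overlaps Arhgap26 on the opposite strand in GENCODE, and it is not known here whether the counting used strand.

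Fgf9, which reaches nephron progenitors from the ureteric bud, was at 2.00, 2.19 and 2.30 cRPKM in wildtype against 2.32, 2.54 and 2.85 in mutant kidneys. The groups met almost without a gap and the gene did not pass (log2 fold change 0.17, SE 0.0716, adjusted p = 0.355). Fgf20, its close relative made in the progenitors themselves, was at 2.02, 1.88 and 1.41 in wildtype against 1.95, 2.04 and 1.90 in mutant kidneys. Here the groups overlapped, and the interval of the log2 fold change ran from -0.10 to 0.30. Micu3 overlaps Fgf20 on the opposite strand.

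Fgf8, the ligand of forming nephrons, was at 5.35, 6.94 and 7.13 cRPKM in wildtype against 6.15, 6.67 and 7.01 in mutant kidneys. The mutant values all lay inside the wildtype range, with an interval of -0.18 to 0.25 around a log2 fold change of 0.03. Fgf18, of the same subfamily, was the most uneven ligand among wildtype embryos, at 4.06 and 3.71 cRPKM in embryos 1 and 2 and 2.03 in embryo 3. The mutant kidneys held 2.76, 3.17 and 3.17, between those wildtype levels. Its log2 fold change was -0.05 with all embryos and -0.28 without wildtype embryo 3, where it still did not pass (adjusted p = 0.136, the lowest over its alternatives).

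Among the secreted Fgf genes, Fgf8 took 27.6 ± 4.83% of the summed ligand cRPKM in wildtype and 24.8 ± 0.722% in mutant kidneys (SD, n = 3). The share of Fgf10 was 24.4 ± 0.882% and 26.7 ± 2.60%, and that of Fgf1 was 9.08 ± 2.73% and 13.6 ± 2.01%. The Fgf1 share ran from 5.96% to 11.0% in wildtype and from 12.2% to 15.9% in mutant kidneys, without overlap.

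The 13 members too low to test were Fgf2, Fgf3, Fgf4, Fgf5, Fgf6, Fgf7, Fgf14, Fgf15, Fgf16, Fgf17, Fgf21, Fgf22 and Fgf23. Fgf7, a stromal ligand that acts on the ureteric bud, was at 0.53, 0.41 and 0.33 cRPKM in wildtype against 0.23, 0.26 and 0.27 in mutant kidneys. Fgf15, a hormone-like Fgf of the embryo and gut, was at 0.84, 0.80 and 0.94 in wildtype against 0.67, 0.60 and 0.67 in mutant kidneys. For both, all mutant values were below all wildtype values, as for 9.81% of the 6420 genes that were above 0 with a mean under 1 cRPKM. In a fit without the minimum their adjusted p was 0.229 and 0.152. No low member had all its mutant values above wildtype, against 2.91% of such genes.

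Fgf2 ranged from 0.49 to 0.90 cRPKM, with the top value in wildtype embryo 1, and Fgf5 from 0.14 to 0.41. Fgf17 kept within 0.25 and 0.32 and Fgf3 within 0.13 and 0.21. Fgf14 lay between 0.04 and 0.11, Fgf21 between 0.05 and 0.16 and Fgf22 between 0 and 0.15. Fgf16, Fgf23, Fgf6 and Fgf4 stayed at or below 0.06 in every library. Fgf22, Fgf23, Fgf6 and Fgf4 were listed at 0 in at least 1 library, and their depth is unknown. Fgf2 overlaps Nudt6, Fgf7 overlaps Fam227b and Fgf22 overlaps Rnf126, each on the opposite strand.

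Besides Fgf15, the endocrine Fgf genes Fgf21 and Fgf23 were near 0, and so were the Klotho co-receptors that these hormones need. Kl, the co-receptor of Fgf23, was at 0.05 to 0.11 cRPKM and Klb, that of Fgf15 and Fgf21, at 0.05 to 0.10. Fgf3, Fgf4 and Fgf15 are neighbours on chromosome 7 (144838083 to 144900953, GRCm38), and their levels differed, with Fgf15 the highest of the 3 in every library and Fgf4 the lowest.

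The intracellular Fgf genes code for proteins that are not secreted and are best known for binding sodium channels and microtubules. Fgf11 was at 4.26, 3.94 and 3.67 cRPKM in wildtype against 3.68, 3.76 and 3.83 in mutant kidneys, which overlapped. Fgf13, on the X chromosome, was at 2.60, 2.31 and 2.80 in wildtype against 2.03, 2.41 and 2.24 in mutant kidneys (log2 fold change -0.15, adjusted p = 0.457). Fgf12 was at 1.17, 1.09 and 1.24 in wildtype against 1.43, 1.46 and 1.27 in mutant kidneys (0.14, adjusted p = 0.420). The groups did not overlap for Fgf12 alone, and none of the 3 tested genes passed.

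**Figure D2:**
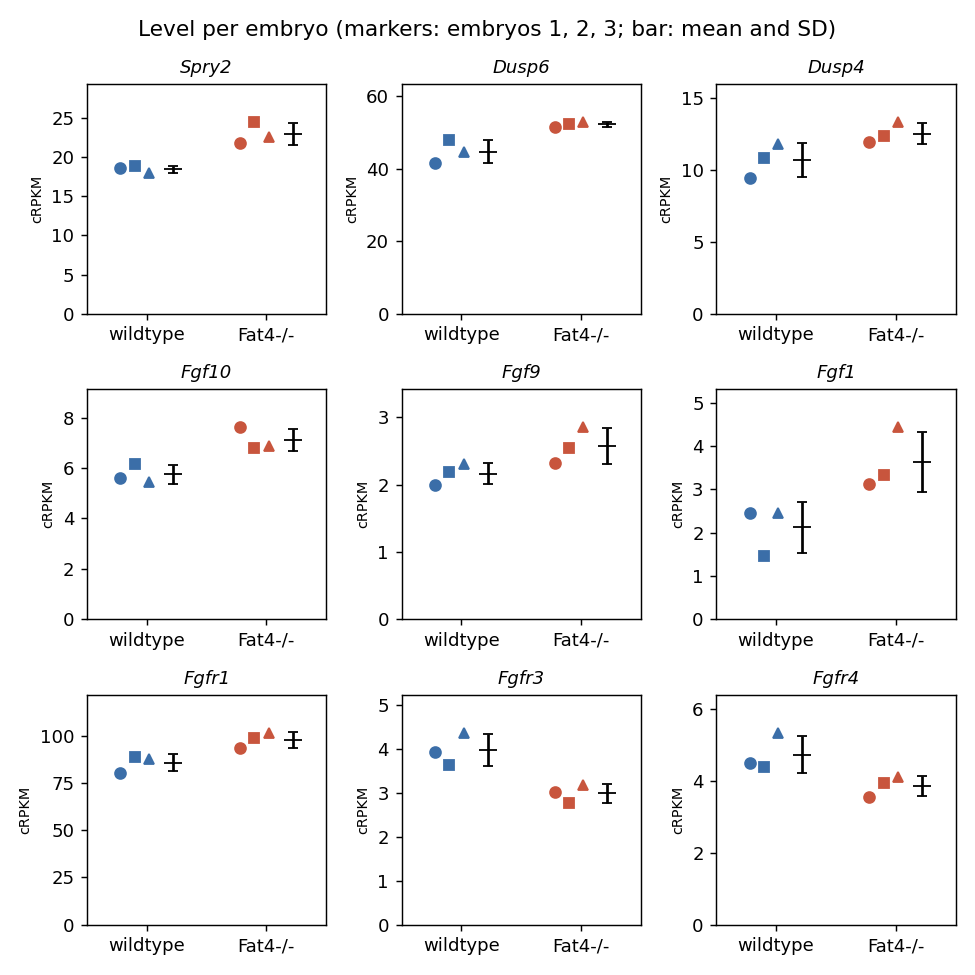
Level in cRPKM of 9 members per embryo (circle, square and triangle for embryos 1, 2 and 3; blue wildtype, red mutant), with the mean and SD as a black bar at the right of each group and each axis starting at 0. The genes were chosen because their groups are apart, for example Spry2 at 18.0 to 18.8 against 21.8 to 24.5 and Fgfr3 at 3.65 to 4.37 against 2.77 to 3.19. Fgf12, the other tested member with groups apart, is not drawn.

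The receptors did not all lie on the same side of wildtype. Fgfr1, the main receptor of the metanephric mesenchyme, lay higher in every mutant kidney, Fgfr3 and Fgfr4 lay lower in every mutant kidney, and Fgfr2 and Fgfrl1 overlapped. None of the 5 passed the test. Fgfr1, which lies on chromosome 8 of GRCm38 (25513654 to 25575718), was the most abundant member, at 80.42, 88.90 and 87.85 cRPKM in wildtype against 93.37, 98.92 and 101.50 in mutant kidneys. Its mean was 1.14 times the wildtype mean (log2 fold change 0.19, SE 0.0529, adjusted p = 0.151).

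Fgfr3, a receptor best known for restraining cartilage growth, had the lowest fold of the 27 tested members. It was at 3.94, 3.65 and 4.37 cRPKM in wildtype against 3.02, 2.77 and 3.19 in mutant kidneys. The mutant mean was 75.1% of the wildtype mean (log2 fold change -0.32, SE 0.0694, adjusted p = 0.0733). Fgfr4, a receptor that in liver works with Klb, was at 4.49, 4.38 and 5.34 in wildtype against 3.55, 3.94 and 4.10 in mutant kidneys. Its mean was 81.6% of the wildtype mean (log2 fold change -0.24, adjusted p = 0.226). Both genes are placed on GRCm38, Fgfr3 on chromosome 5 (33721674 to 33737068) and Fgfr4 on chromosome 13 (55152640 to 55168759).

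Fgfr2, which serves both the ureteric bud and the mesenchyme through 2 splice forms that a gene-level value cannot tell apart, was at 37.03, 40.1 and 40 cRPKM in wildtype. It was at 37.85, 35.24 and 39.40 in mutant kidneys, with an interval of -0.18 to 0.06 around a log2 fold change of -0.06. In GENCODE the Fgfr2 locus is drawn across many neighbouring genes, so its reads may be shared in some annotations. Fgfrl1, a receptor without a kinase domain that is needed to form nephrons, was at 18.79, 21.27 and 21 in wildtype against 21.05, 22.04 and 23.19 in mutant kidneys (log2 fold change 0.11, adjusted p = 0.463).

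As a share of the summed cRPKM of the 4 kinase receptor genes, Fgfr1 made up 63.9%, 64.9% and 63.9% in wildtype and 67.8%, 70.2% and 68.5% in mutant kidneys. Fgfr2 took 29.4%, 29.3% and 29.1% in wildtype and 27.5%, 25.0% and 26.6% in mutant kidneys. Fgfr3 went with 2.99 ± 0.284% and 2.10 ± 0.120% and Fgfr4 with 3.55 ± 0.343% and 2.71 ± 0.120% (SD, n = 3). For all 4 genes the mutant shares did not overlap the wildtype shares, and as parts of 1 total they are not independent of each other. An exact permutation test of 3 embryos against 3 cannot go below p = 0.1, and these shares were not tested.

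**Figure D3:**
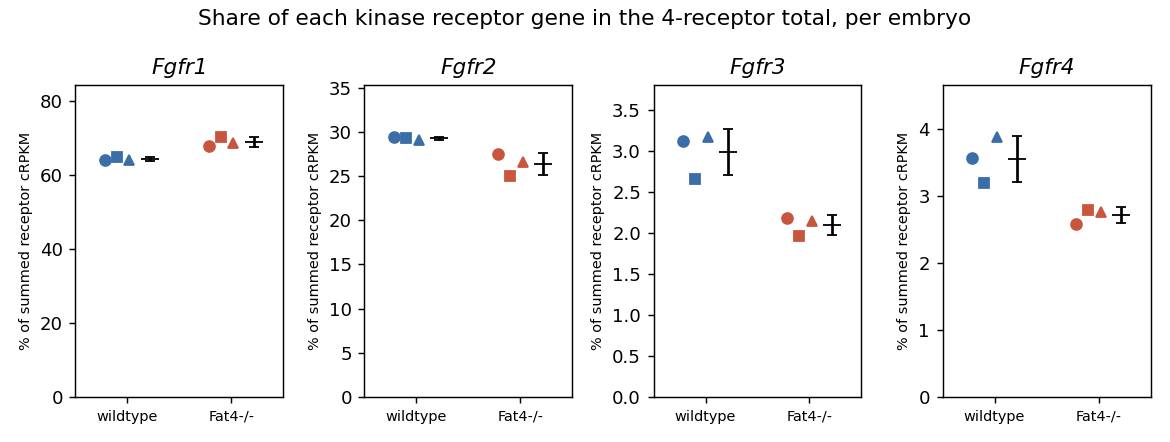
Share of each kinase receptor gene in the summed cRPKM of Fgfr1 to Fgfr4, in percent, per embryo (circle, square and triangle for embryos 1, 2 and 3; blue wildtype, red mutant; black bar, mean and SD; each axis starts at 0). The mutant embryos sit above wildtype for Fgfr1 and below it for the other 3 genes.

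Summed levels of cell type markers are given beside these receptor values, and those of early nephron and stromal markers overlapped between the groups. Sums follow the most abundant genes. The mean log2(cRPKM + 1) of each list, minus its wildtype mean, did not overlap for either. It was -0.166 to 0.208 in wildtype and -0.397 to -0.172 in mutant kidneys for early nephron markers. For stromal markers it was -0.044 to 0.055 and -0.253 to -0.204. The summed cRPKM of 9 nephron progenitor markers was 323 to 366 in wildtype and 390 to 447 in mutant kidneys. Of the 9, 3 rose, Eya1, Osr1 and Meox2, and none fell. The mean of Crym lay lower in mutant kidneys (log2 fold change -0.14), and for Crym and Cited1 the groups overlapped. The summed cRPKM of 8 early nephron markers was 137 to 181 in wildtype and 128 to 146 in mutant kidneys, and 1 fell, Dkk1. For 5 podocyte markers it was 26.7 to 35.4 and 21.8 to 25.4, and none of the 3 tested passed. Sums of 10 ureteric epithelium markers were 299 to 347 in wildtype and 285 to 296 in mutant kidneys, with none of the 10 passing. The 10 stromal markers summed to 555 to 660 in wildtype and 533 to 565 in mutant kidneys, and 2 fell, Pdgfra and Alx1. The log2 fold change was below 0 for 7 of the 10 and above 0 for Meis2 (0.09), Foxd1 (0.04) and Meis1 (0.02). Over all tested genes 0.552% were called higher and 0.877% lower. The part of these cell types in the receptor values was not tested. In whole kidneys a smaller share of a cell type and less RNA per cell cannot be told apart.

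Frs2, the docking protein of the receptors, was at 15.10, 15.13 and 15.68 cRPKM in wildtype against 15.49, 13.72 and 15.53 in mutant kidneys. Frs3, its less abundant relative, was at 2.40, 2.52 and 2.47 in wildtype against 2.57, 2.46 and 2.81 in mutant kidneys. Neither passed, with intervals of -0.16 to 0.09 and -0.07 to 0.19 on the log2 scale. Downstream of them, none of 23 tested adaptor and Ras to Erk genes passed, and their median log2 fold change was 0.01, beside -0.01 over all tested genes. The smallest p belonged to the scaffold gene Ksr1 (3.71 and 3.32 cRPKM as group means, adjusted p = 0.367) and to Map2k1, which codes for the kinase of Erk (29.5 and 31.7 cRPKM, adjusted p = 0.429). Counts at an unadjusted p under 0.05 (limma) were 0 higher and 1 lower, beside 5.08% and 7.97% of all tested genes.

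Sprouty proteins curb signalling of receptor tyrosine kinases between the receptor and Ras. Spry2, on chromosome 14 of GRCm38 (105891947 to 105896819), measured 18.56, 18.83 and 17.98 cRPKM in wildtype against 21.75, 24.50 and 22.57 in mutant kidneys. The wildtype embryos lay close together and every mutant was above them. The mean was 1.24 times that of wildtype, with a log2 fold change of 0.30 (95% interval 0.18 to 0.41, adjusted p = 0.0324). It was the 1 of 27 tested members to pass upwards, as did 0.552% of all tested genes, and none of the 27 passed downwards, as did 0.877%. At an unadjusted p under 0.05 in limma, 8 members were higher and 2 lower, beside 5.08% and 7.97% of all tested genes. Spry2 did not pass without any single embryo (adjusted p 0.0656 to 0.101), and its log2 fold change then ran from 0.25 to 0.33.

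Spry1, which restrains Ret signalling in the ureteric bud and whose loss gives extra buds, was the most abundant Sprouty gene. It was at 27.34, 33.23 and 35.90 cRPKM in wildtype against 30.60, 33.32 and 33.36 in mutant kidneys. The mutant values were within the wildtype range, and the interval of the log2 fold change was -0.19 to 0.23. Spry1 lies on chromosome 3 (37639947 to 37644598, GRCm38), 1.24 Mb from Fat4, and Fgf2 lies there too (37348346 to 37410108), 1.48 Mb from Fat4. Genes this close to an allele are mostly inherited with it, and for neither gene were the groups apart.

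Spry4 was at 8.08, 8.79 and 9.86 cRPKM in wildtype against 9.56, 9.99 and 11.29 in mutant kidneys, which overlapped (log2 fold change 0.19, adjusted p = 0.362). Spry3 was the lowest of the family, at 1.51, 1.30 and 1.39 in wildtype against 1.49, 1.31 and 1.34 in mutant kidneys. Its interval ran from -0.16 to 0.14.

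Dusp6, a phosphatase that switches off Erk in the cytoplasm, was the most abundant inhibitor gene. It was at 41.43, 47.74 and 44.60 cRPKM in wildtype against 51.37, 52.23 and 52.84 in mutant kidneys, so that the mutants were tight and above all wildtype embryos. The mean was 1.17 times the wildtype mean (log2 fold change 0.22, SE 0.0530, adjusted p = 0.0917). Dusp4, a nuclear phosphatase of the same family, was at 9.44, 10.83 and 11.76 in wildtype against 11.89, 12.32 and 13.31 in mutant kidneys. The groups were apart by a narrow gap (log2 fold change 0.21, adjusted p = 0.273).

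The Spred proteins bind neurofibromin and hold Ras inactive. Spred1 was at 29.71, 30.55 and 30.54 cRPKM in wildtype against 31.93, 30.44 and 30.86 in mutant kidneys, with an interval of -0.05 to 0.12. Spred2 was at 22.56, 24.83 and 27.16 in wildtype against 27.33, 23.95 and 28.26 in mutant kidneys. Spred3 was at 7.90, 8.59 and 8.57 in wildtype against 9.04, 8.52 and 9.16 in mutant kidneys. All 3 overlapped between the groups, and Spred3 overlaps Ggn on the opposite strand. Il17rd, which codes for the membrane inhibitor Sef, was at 13.07, 13.93 and 15.35 in wildtype against 14.97, 13.78 and 15.79 in mutant kidneys, again with overlap.

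Etv1 codes for an Ets factor of the group that answers to Fgf. It was at 3.41, 3.16 and 3.14 cRPKM in wildtype against 3.70, 3.44 and 3.38 in mutant kidneys (log2 fold change 0.09, adjusted p = 0.564). It was far below its relatives Etv4 and Etv5, whose means were 45.9 and 44.2 cRPKM in wildtype.

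**Figure D4:**
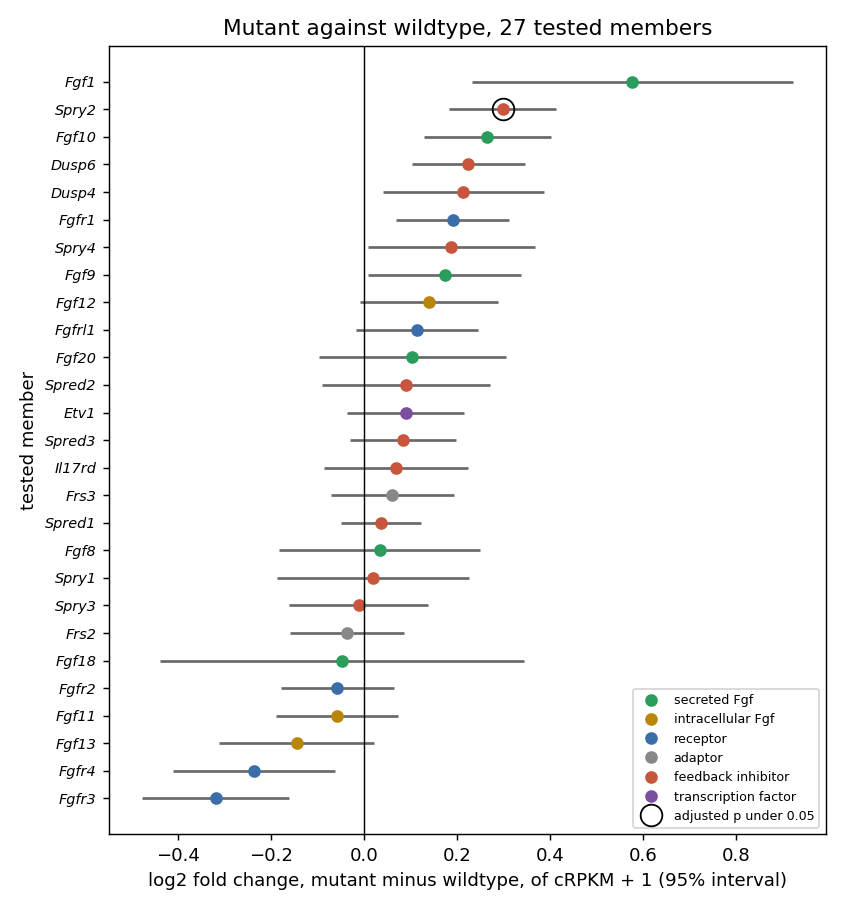
Log2 fold change (mutant minus wildtype, of cRPKM + 1) of the 27 tested members with its 95% interval, coloured by role and sorted; the black ring marks the member with an adjusted p under 0.05. Spry2 at 0.30 is the ringed gene, Fgf1 at 0.58 and Fgfr3 at -0.32 are the ends of the range, and 17 members cross or touch 0 in their interval.

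By role, the log2 fold change was above 0 for 9 of the 10 inhibitor genes, 5 of the 6 tested secreted ligands and 2 of the 5 receptors. It ran from -0.01 to 0.30 over the inhibitors and from -0.32 to 0.19 over the receptors. Over all 27 tested members it was above 0 for 19, with a median of 0.08, beside 43.2% and a median of -0.01 over all tested genes. Without the minimum, which brings in the 13 low members, it was above 0 for 24 of 40 and below for 16, with a median of 0.02. The median was 0.05 without wildtype embryo 1 and 0.04 without mutant embryo 3. Wildtype embryo 1 held the lowest of the 6 values for 13 of the 27 members, beside 18.4% of all tested genes, and mutant embryo 3 the highest for 11, beside 16.1%. With groups not overlapping, 8 of the 27 were higher and 2 lower in mutant kidneys, beside 7.23% and 11.0% of all tested genes.

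With the score of the Y-linked genes as a covariate no member passed in either direction, and 3 were higher and 2 lower at an unadjusted p under 0.05 (limma). The share of all tested genes at that p is not given for this fit, in which 1 of all tested genes was called higher and 1 lower. Spry2 then had a log2 fold change of 0.23 (adjusted p = 0.566, against 0.0233 to 0.566 over its alternatives). The log2 fold change of Fgf10 was then 0.35, of Dusp6 0.20 and of Fgfr3 -0.31. It came closer to 0 for Fgfr1 (0.19 to 0.12), Fgf9 (0.17 to 0.070), Spry4 (0.19 to 0.095), Fgf1 (0.58 to 0.43) and Dusp4 (0.21 to 0.15). Mutant embryo 1, which like the wildtype embryos expressed the Y-linked genes, was above every wildtype embryo for 13 of the 27 members and below for 3. Over all tested genes it was above for 17.7% and below for 28.2%. The 3 below were Fgfr3, Fgfr4 and Fgf13. The 13 above were Fgfr1, Dusp6, Spred1, Spred2, Spry2, Dusp4, Spred3, Fgf10, Etv1, Fgf1, Frs3, Fgf9 and Fgf12. Where the groups were apart, this place follows from the groups and is not a separate result. The groups overlapped for Fgf13, Spred1, Spred2, Spred3, Etv1 and Frs3.

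Among other genes that Erk induces, 7 of 9 had a log2 fold change above 0, beside 43.2% of all tested genes. The list was chosen with earlier results of these data known. Of the 9 tested, 1 rose, Dusp5, which codes for a nuclear Erk phosphatase, and none fell. Over all tested genes 0.552% were called higher and 0.877% lower. The alternatives were read gene by gene for members only, so how the call of Dusp5 depends on them is not known here. Of all tested genes, 1 was called higher with the Y-linked score and 7 to 53 with an embryo left out. Dusp5 was at 5.46, 6.79 and 6.42 cRPKM in wildtype against 8.43, 8.99 and 9.11 in mutant kidneys, with a wide gap between the groups. Its mean was 1.42 times the wildtype mean (log2 fold change 0.45, SE 0.0719, adjusted p = 0.0267). The list's median was 0.24, and 6 of the 9 had all mutant values above wildtype, beside 7.23% of all tested genes.

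Named after their values were seen, the other 5 with the groups apart were Ier2, Phlda1, Etv4, Myc and Egr1, at adjusted p from 0.0885 to 0.177. Etv4, an Ets factor of the branching tip, was at 41.17, 47.38 and 49.15 cRPKM in wildtype against 52.10, 55.95 and 56.69 in mutant kidneys. Etv5 overlapped between the groups (38.40, 44.12 and 50.04 against 48.40, 48.20 and 53.56). Ccnd1, a cyclin gene that answers to many growth signals, lay the other way, with group means of 172 and 153 cRPKM (adjusted p = 0.313). Egr1, Ier2 and Myc also respond to handling of tissue and to other pathways.

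**Figure D5:**
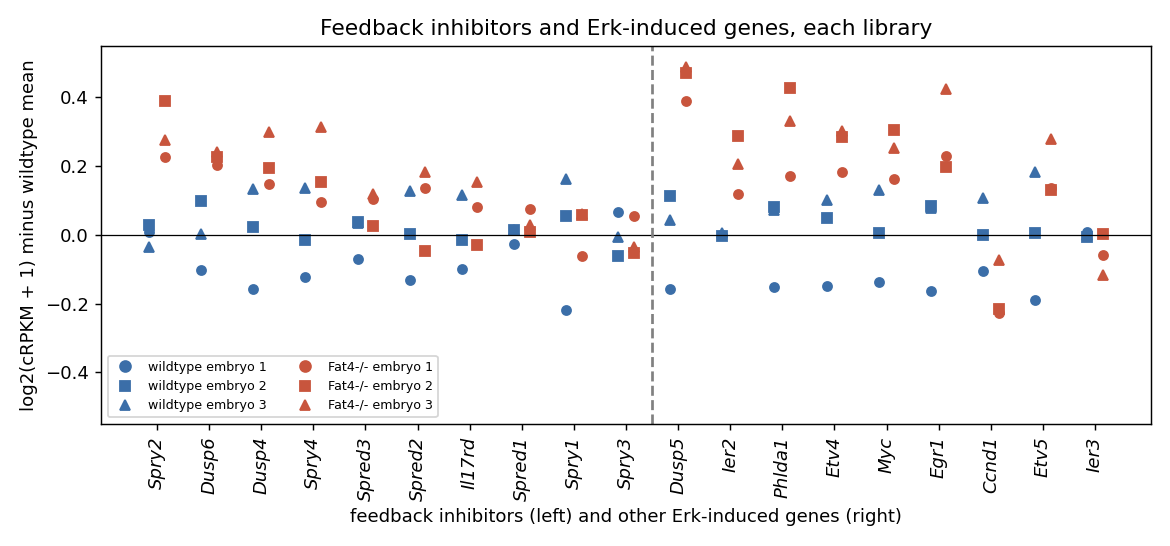
Each library's log2(cRPKM + 1) minus the wildtype mean for the 10 feedback inhibitors (left of the dashed line) and 9 other Erk-induced genes (right), blue for wildtype and red for mutant embryos, with circle, square and triangle for embryos 1, 2 and 3. Mutant points are above all wildtype points for Spry2, Dusp6 and Dusp4 on the left and for Dusp5, Ier2, Phlda1, Etv4, Myc and Egr1 on the right, and wildtype embryo 1 is the lowest wildtype point for most of them.

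In the ureteric bud tip the same genes also answer to Gdnf through Ret. None of 5 genes of that route passed, with a median log2 fold change of 0.15. Gfra1, the co-receptor that binds Gdnf, had group means of 49.9 and 56.2 cRPKM (adjusted p = 0.247) and Gdnf of 24.1 and 26.8 (adjusted p = 0.324). At an unadjusted p under 0.05 in limma, 2 of the 5 were higher and 0 lower, beside 5.08% and 7.97% of all tested genes. The summed cRPKM of 5 ureteric tip markers was 90.4 to 103 in wildtype and 107 to 112 in mutant kidneys, and none of the 5 passed. Ret, Gfra1 and Wnt11 are in both lists, so the lists are not independent of each other. The progenitor marker sums given above were apart in the same direction, and the part of either cell type in the levels of Spry2, Dusp6 or Dusp5 was not tested.

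Of the genes for Fgf co-receptors, binding proteins and heparan sulfate enzymes, 1 of 16 tested fell and none rose. Over all tested genes 0.877% were called lower and 0.552% higher. The gene that fell was Flrt2, which codes for a membrane protein of the family that binds Fgf receptors. It was at 23.69, 21.44 and 23.84 cRPKM in wildtype against 19.10, 16.96 and 18.05 in mutant kidneys (log2 fold change -0.33, SE 0.0578, adjusted p = 0.0352). The list's median was 0.02. Named after their values were seen, Sulf1 and Sulf2, whose enzymes both trim sulfate from heparan sulfate, lay on opposite sides. Sulf1 was at 15.13, 9.88 and 10.21 cRPKM in wildtype against 8.06, 9.49 and 8.10 in mutant kidneys (adjusted p = 0.274). Sulf2 was at 71.44, 79.07 and 70.29 in wildtype against 84.00, 87.00 and 85.76 in mutant kidneys (adjusted p = 0.0904).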

How the data were processed

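RNA of 6 kidney libraries, 3 per genotype, was read from the authors' deposited table of 22667 genes, 1 column per library, all of them used through the header text in each sample's description. The authors deposited RPKM values in corrected form (cRPKM) made from trimmed reads, per the file headers; Bowtie and mm9 are named in the submitters' processing notes, and for the correction itself the sources used here give nothing. Of the genes, 1114 held no value. As these are not counts, log2(cRPKM + 1) was tested with limma 3.58.1 in R 4.3.3 (lmFit and eBayes with a trend; 2-sided; genotype alone in the model, leaving 4 residual degrees of freedom) over the 12315 genes averaging 1 cRPKM or more. P-values were adjusted by Benjamini-Hochberg over all of them, with calls at 0.05. The fit was tested on simulated data. Fold changes on this scale understate low genes, and p-values measure the spread between embryos of 1 litter. Ratios, means and SD are of cRPKM, and medians cover tested genes. Depth was estimated from ratios of values of at least 0.2 cRPKM in low genes, as 1 to 3 reads within 1.5%.

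Members and gene lists were chosen with earlier results of these data known. All tested members were named with their values, low members by their range from 0.1 cRPKM up (Fgf7, Fgf15 and those under 0.1 after their values were seen), and of each pathway list the called genes or else the 2 with the smallest p. Marker lists were nephron progenitors, early nephron, podocytes, ureteric tip, ureteric epithelium, stroma, skeletal muscle, gonad and germ cells, adrenal cortex, nerve and neural crest, endothelium, erythroid cells, macrophages and Y-linked genes. Of the lists not described above none of the tested genes passed: 6 endothelial, 5 macrophage, 4 erythroid, 3 nerve, 1 adrenal, 0 gonadal, 1 muscle and 4 Y-linked. Flrt3 (a name held by several rows) and Hras had no values used here. Positions came from GENCODE M21 on GRCm38, by Ensembl identifier, for 39 members (not mm9), and promoters from RefSeq on GRCm38.p6, by symbol, for 30; Fgf1, Fgf8, Fgf15, Fgf16, Fgf17, Fgf20, Fgfr1, Dusp4, Spry3 and Spry4 were not among them.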

Additional observations from a re-analysis of the deposited data

How the results depend on the processing

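The 14 alternatives were another pseudocount (0.1), no minimum level, a minimum of 5 cRPKM, median ratio scaling, quantile normalisation, library weights, the Y-linked score, the embryo number as a block and each embryo left out. The count of members called higher went from 1 to 0 without a minimum and with the Y-linked score, and was 0 to 0 with an embryo left out. With limma at an unadjusted p under 0.05 these fits held 7, 3 and 5 to 8 members higher. Members lower at that p were 4, 2 and 1 to 3. The share of all tested genes at that p is not given for these fits, so the counts only describe the members. Members called lower went from 0 to 1 (Fgfr3, adjusted p = 0.0359, and 0.0359 to 0.702 over its alternatives) with the replicate block.

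Of all tested genes, 68 were called higher and 108 lower. Without a minimum these were 10 and 22, with the Y-linked score 1 and 1, with the replicate block 109 and 164, and with an embryo left out 7 to 53 and 17 to 87; 61 were lower with a minimum of 5 cRPKM. More genes tested without a minimum, and fewer embryos when 1 is left out, are part of those settings; the other causes were not tested. Deviations of same-numbered embryos correlated at 0.099, 0.205 and 0.277. Other pairs ran from -0.373 to 0.227, the latter for wildtype embryo 1 with mutant embryo 2. The column headers number the wildtype and mutant library of each embryo number in sequence. The numbers were not taken as pairs in the main fit, and whether they mark a shared step of processing was not tested.

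Spry2 was above 0 in all 14 fits. The 9 other tested members whose groups were apart kept their sign in each alternative that tested them (13 or 14). With groups apart, most of these fits could not change the sign, so this is no support. Only median ratio scaling, quantile normalisation and the Y-linked score could have changed it. Fgf7 and Fgf15 were fitted only without a minimum. Log2 fold changes near 0 changed sign for Spry1 (-0.0646 with the Y-linked score, -0.0103 with library weights), Fgf8 (-0.0596 and -0.0132), Frs2 (0.0168 with the Y-linked score) and Spry3 (0.0459 with quantile normalisation, 0.0557 with the Y-linked score, 0.0268 with library weights). With an embryo left out Spry1 ran from -0.0895 to 0.101, Fgf8 from -0.0799 to 0.0984, Frs2 from -0.0653 to 0.0184, Fgf18 from -0.277 to 0.0928 and Spry3 from -0.0449 to 0.0209; the cause was not tested. Depth is unknown, so no lower limit can be given for genes at 0.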
